A study of Mus musculus with 54 samples.

Results

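The passage of wild-type (WT) mouse epiblast-like cells (EpiLC) into day 2 primordial germ cell-like cells (PGCLC) is described here. It was chosen as all the WT libraries labelled with those 2 stages: 2 EpiLC and 2 PGCLC libraries, 4 of the 54 in the series. The 4 share 1 background, given in the labels as C57BL/6 X 129/SvJ, and carry no labelled mutation, transgene or agent. WT embryonic stem cells (ESC), the earlier stage of the same culture route, are used only as a level to compare with. The same step in 8 other lines is used only to show where WT differs. Some of these lines are labelled as knockouts (KO) of Ovol1, Ovol2 or Ovol3, and another as TKO, which is not spelled out. The rest are labelled as transgenic (Tg) for Cdh1 or for forms of Ovol2. Culture media, the factors that induced PGCLC, whether PGCLC were sorted before lysis, and whether the 2 libraries of a group came from separate cultures are not stated in the labels. The p-values come from 1 fit of all 54 libraries. They therefore measure only the spread between the 2 libraries of a group, shared over 27 groups that include ESC and the other lines. That spread may be technical. In bulk RNA of this kind, fewer cells of a type and less RNA per cell cannot be told apart.

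In the mouse embryo, germ cells are set aside from the posterior epiblast at gastrulation. BMP4 from the extraembryonic ectoderm, together with WNT signalling, switches on the transcription factors Prdm1 (BLIMP1), Prdm14 and Tfap2c, which establish the germ line. The neighbouring epiblast cells, exposed to the same signals, enter the primitive streak and form mesoderm. EpiLC resemble the epiblast before gastrulation, and PGCLC are their counterpart of the first germ cells in culture.

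Read counts recovered from the deposited values, summed over 17956 genes, were 3.5 and 16.92 M in the EpiLC libraries and 5.06 and 6.73 M in the PGCLC libraries, within a range of 2.09 to 25.96 M over the 54 libraries. Levels are given as TPM, length-scaled shares of the mRNA that sum to the same total in every library. Replicates lay close together: 1.14% of the 14416 genes tested differed more than 2-fold between the EpiLC libraries and 1.22% between the PGCLC libraries. Between an EpiLC and a PGCLC library the share was 21.1% to 23.8%. Fold changes are on the log2(TPM + 1) scale, which understates those of scarce genes, and a positive value means a higher level in PGCLC. A gene was called changed, here also said to have risen or fallen, when its Benjamini-Hochberg (BH) adjusted p from limma was under 0.05 and its log2 fold change at least 1 in size.

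The labels were checked against short marker sets. All 6 EpiLC markers (Fgf5, Pou3f1, Otx2, Dnmt3b, Dnmt3l and Pim2) fell, their summed level going from between 2465 and 2495 TPM in EpiLC to between 294.9 and 391 TPM in PGCLC. All 6 PGCLC markers (Prdm1, Prdm14, Tfap2c, Nanos3, Dnd1 and Dppa3) rose, from a summed 28.6 to 33 TPM to between 158 and 164 TPM. Dppa3 passed only narrowly, at a log2 fold change of 1.03 against the threshold of 1. Its call was not followed through other settings. All 6 markers of streak mesoderm rose as well, from between 4.83 and 5.26 TPM to between 1754 and 1760.3 TPM. In both PGCLC libraries the summed streak level was above that of the germ cell markers. Most of that streak level was T alone, and sums over different genes do not measure shares of cell types. The 6 naive pluripotency markers (Klf4, Klf2, Tfcp2l1, Esrrb, Nr5a2 and Tbx3) also rose, from between 19.6 and 21.4 TPM to between 293.4 and 309.4 TPM. Longer gene lists moved in both directions or the other way: of 19 early germ cell genes 8 rose and 6 fell, of 16 late germ cell genes 11 fell and none rose, and of 16 naive pluripotency genes 11 rose and 4 fell.

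Of 14416 genes, 3043 were called changed (21.1%), of which 1944 were higher in PGCLC (13.5% of genes tested) and 1099 lower (7.62%). Higher genes made up 63.9% of the calls. With quantile scaling between libraries the split was 1383 higher and 1518 lower, or 47.7% higher. That scaling moved the median change over all genes from 0.15 to -0.01, so a gene's change is read against a background median of 0.15. Of all 3043 calls, 2476 (81.4%) were kept under it. The naming rule took 222 list and extreme genes for their large changes in these data. That 217 of them kept their call is therefore no separate check. None of the 222 changed direction under any setting tried.

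**Figure D1:**
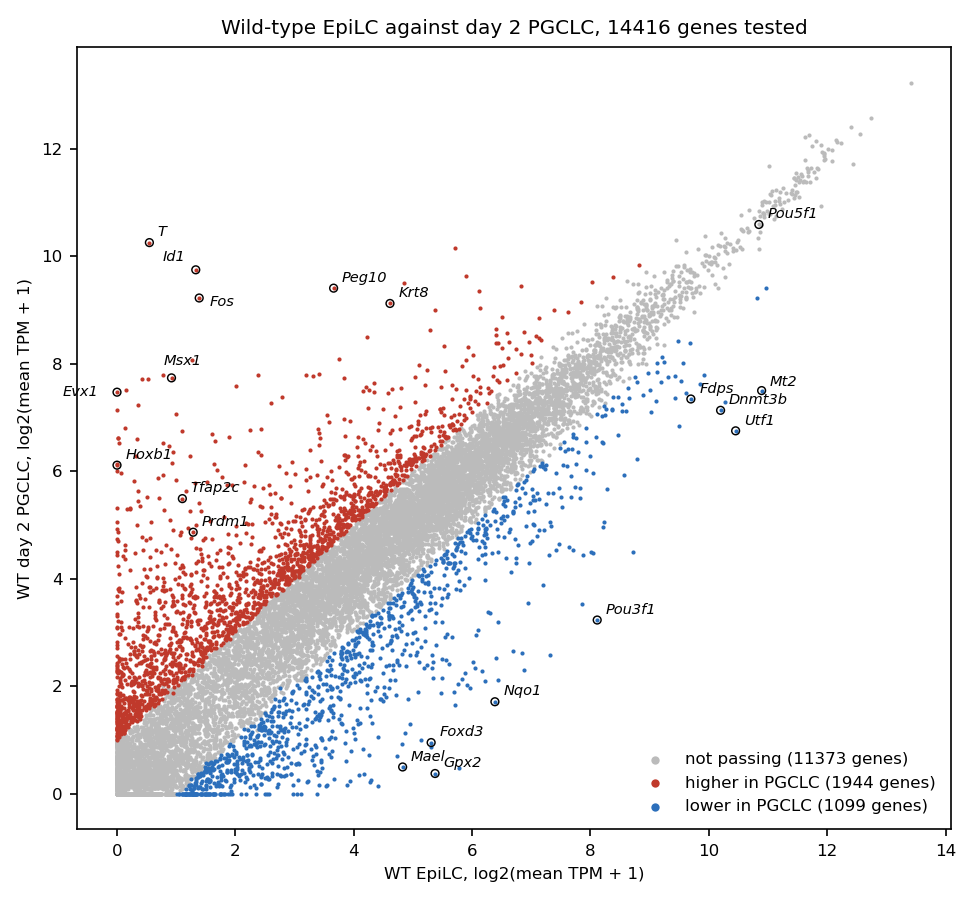
Mean level of each of 14416 genes in WT EpiLC (x axis) and WT day 2 PGCLC (y axis), both as log2(mean TPM + 1), 1 point per gene, the mean taken over 2 libraries. Red points are the 1944 genes called higher, blue points the 1099 called lower and grey points the rest; T, Id1 and Fos lie farthest above the diagonal, while Mt2, Utf1 and Dnmt3b leave the most abundant end downwards.

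The largest rise was that of T, which encodes brachyury, the T-box factor of the primitive streak. Its level was 0.57 and 0.352 TPM in EpiLC and 1159 and 1279 TPM in PGCLC (log2 fold change 9.71, SE 0.26, limma adjusted p = 8.16e-26). Id1, which encodes an inhibitor of basic helix-loop-helix factors and is a direct target of BMP signalling, was at 1.87 and 1.16 TPM in EpiLC and 810.0 and 905 TPM in PGCLC (log2 fold change 8.43, SE 0.31). Both genes were under 2 TPM in each EpiLC library. No overlap between the groups was a condition for entering this ranking. Fos, a subunit of the AP-1 factor that cells induce within minutes of stimulation, was at 1.11 and 2.12 TPM in EpiLC and 526 and 666 TPM in PGCLC (log2 fold change 7.85, SE 0.34).

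Homeobox genes of the posterior embryo followed. Evx1 was listed at 0 in both EpiLC libraries and at 178 and 174 TPM in PGCLC, at least 1696-fold higher when its EpiLC level is set at 3 reads over the 2 libraries. Cdx2 was at 0 and 0.224 TPM in EpiLC and 193 and 169.5 TPM in PGCLC (log2 fold change 7.36, SE 0.32), and Cdx1 at 0.666 and 0.206 TPM in EpiLC and 201 and 219 TPM in PGCLC (log2 fold change 7.21, SE 0.25). Both encode caudal factors that pattern the posterior axis. The muscle segment homeobox genes Msx1 and Msx2, which are BMP targets, rose by 6.83 and 6.89 to 212 and 149.9 TPM. Sprr2a3, which encodes a small proline-rich protein of the epidermal cornified envelope, rose from 0.684 and 0 TPM to 231 and 185 TPM. Its near-identical neighbours Sprr2a1 and Sprr2a2 hold the same values as each other, so how the reads divide among these copies is uncertain.

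The genes that gained the most TPM among called genes, beside T and Id1, included Id3, of the same family as Id1, which went from 67.9 and 68.6 TPM to 599.8 and 698 TPM. S100a10, which encodes an annexin A2 partner, went from 51.1 and 51.6 TPM to 1182 and 1079 TPM, and Igfbp3, an insulin-like growth factor binding protein, from 27.5 and 28.2 TPM to 710.2 and 728 TPM. Trh, which encodes the thyrotropin-releasing hormone precursor, rose from 66.5 and 51.2 TPM to 695 and 885 TPM, against 1070.4 and 1047 TPM in ESC. Krt8, a keratin of simple epithelia, rose from 24.5 and 22.4 TPM to 580.2 and 530.4 TPM. These genes were taken for their large gains, so both PGCLC libraries lying above both EpiLC libraries is no separate evidence.

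The largest falls included EpiLC regulators, metallothioneins and redox enzymes. Pou3f1, which encodes the POU factor OCT6 of the primed epiblast, was at 273 and 279 TPM in EpiLC and 6.72 and 10.03 TPM in PGCLC (log2 fold change -4.91, SE 0.20, limma adjusted p = 3.11e-21). Gpx2, a glutathione peroxidase, went from 45.3 and 35.6 TPM to 0 and 0.59 TPM, and Nqo1, the NAD(P)H quinone dehydrogenase induced by NRF2, from 92 and 73.2 TPM to 1.9 and 2.63 TPM. The carbonyl reductase Cbr3 fell by 4.33 and the stress factor gene Nupr1 by 4.80 on the log2 scale. The 3 metallothionein genes named by the rule, which encode zinc- and copper-binding proteins and lie together on chromosome 8, all fell: Mt2 from 1932 and 1866 TPM to 185 and 175 TPM, Mt1 from 1295 and 1169.8 TPM to 159 and 153 TPM, and Mt3 from 50.9 and 57.4 TPM to 0.783 and 0 TPM. Mt2 had the largest loss of TPM among the genes called. The ferritin heavy chain gene Fth1 fell from 1870.1 and 1740.0 TPM to 592 and 599.7 TPM, and the glutathione transferase genes Gstp1 and Gstp2, which are near-identical and whose separate values are uncertain, fell by 2.13 and 2.25.

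All 3 germ cell specifiers rose. Prdm1, which represses the somatic programme, was at 1.68 and 1.2 TPM in EpiLC and 30.3 and 25.9 TPM in PGCLC (log2 fold change 3.58, SE 0.17, limma adjusted p = 6.46e-19). Tfap2c, which encodes AP-2 gamma, was at 0.38 and 1.92 TPM in EpiLC and 44.1 and 43.7 TPM in PGCLC (log2 fold change 4.48, SE 0.22). Prdm14 went from 0 and 0.0463 TPM to 12.5 and 12.7 TPM (log2 fold change 3.74, SE 0.15). WT ESC also express these 3 genes. Their ESC levels were 25 and 27.4 TPM for Prdm1. For Tfap2c they were 82.7 and 85.6 TPM, and for Prdm14 42.6 and 42.6 TPM. The ESC and PGCLC libraries overlapped for Prdm1, and both PGCLC libraries were lower for the other 2.

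Of 19 early germ cell genes, 8 rose, 6 fell and 5 were not called, with a median log2 change of 0.24 against 0.15 over all genes. Among those that rose was Nanos3, an RNA-binding protein needed for germ cell survival, at 0.799 and 0.329 TPM in EpiLC and 9.81 and 9.05 TPM in PGCLC. Alpl, the tissue-nonspecific alkaline phosphatase used to stain germ cells, was at 32.6 and 31.1 TPM in EpiLC and 147 and 162 TPM in PGCLC. Ifitm3, the interferon-induced membrane protein known as fragilis, went from 131 and 147 TPM to 463 and 458 TPM. Dnd1, an RNA-binding partner of Nanos proteins, rose from 18.7 and 18.5 TPM to 43.3 and 52.7 TPM. Dppa3, which encodes STELLA and protects the maternal genome from demethylation, rose only to 18 and 20.4 TPM from 7.13 and 11 TPM, against 111 and 143 TPM in ESC. Kit, the receptor of migrating germ cells, was at 7.65 and 7.03 TPM in EpiLC and 8.78 and 12.1 TPM in PGCLC and was not called. The 6 that fell were Rhox5, Fgf4, Dppa4, Dppa2, Hells and Elavl2. Rhox5, an X-linked homeobox gene, was at 455 and 389 TPM in EpiLC and 17.4 and 25.9 TPM in PGCLC (log2 fold change -4.24, SE 0.20), and the chromatin factors Dppa2 and Dppa4 fell from 124 and 207 TPM to 18.6 and 22.1 TPM.

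Genes of later germ cells were counted apart. Of 16 tested, none rose, 11 fell and 5 were not called (median -2.09, or -1.96 with the 3 genes listed at 0 in PGCLC set at 3 reads). Mael, which encodes a piRNA pathway protein, was at 22.2 and 32.5 TPM in EpiLC and 0.817 and 0 TPM in PGCLC (log2 fold change -4.37, SE 0.31). Hormad1 and Sycp3 encode proteins of the meiotic chromosome axis. Hormad1 was at 18.8 and 18 TPM in EpiLC and 0 and 0.328 TPM in PGCLC, and Sycp3 was at 25.5 and 29 TPM in EpiLC and 4.51 and 5.61 TPM in PGCLC. Ddx4, the germ cell RNA helicase also called Vasa, went from 13.5 and 13 TPM to 5.32 and 3.2 TPM, and Dazl from 6.1 and 6 TPM to 0.284 and 0.212 TPM. Mael, Hormad1 and Dazl were thus detected in both EpiLC libraries and were under 1 TPM in both PGCLC libraries. Tdrd12, a tudor-domain gene of the piRNA pathway named among the largest falls, went from 84.9 and 85.6 TPM to 3.12 and 3.49 TPM.

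**Figure D2:**
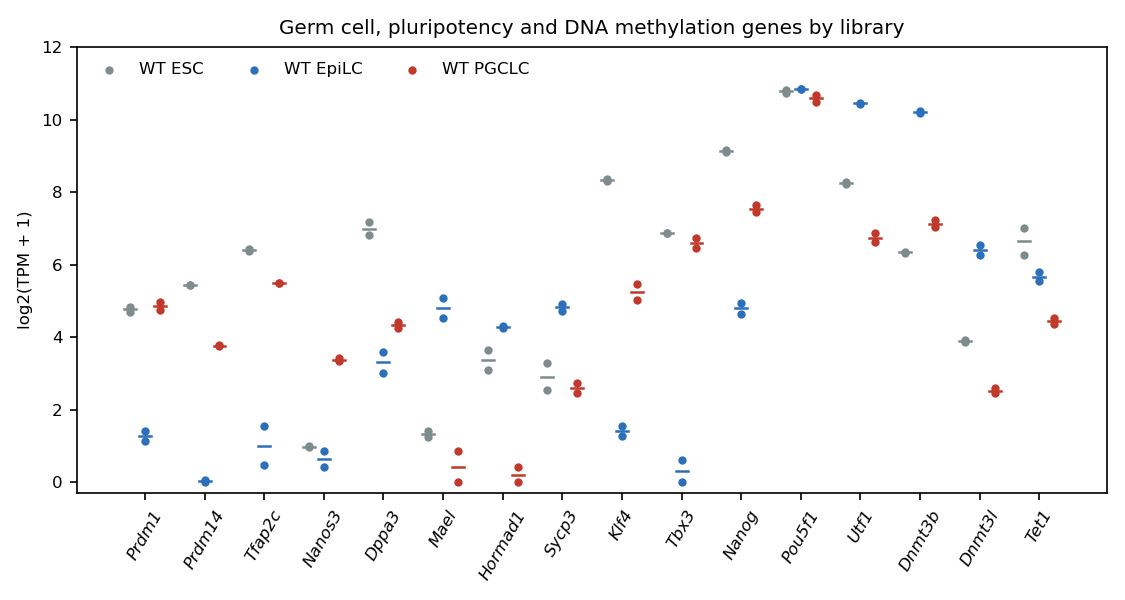
Level of 16 genes as log2(TPM + 1) in the WT libraries, 2 points per stage with a short line at their mean: ESC in grey, EpiLC in blue, PGCLC in red. Prdm1, Prdm14 and Tfap2c are near 0 to 2 in EpiLC and above 3 in PGCLC, Mael, Hormad1 and Sycp3 are highest in EpiLC, and Pou5f1 is level over the 3 stages.

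Of 16 naive pluripotency genes, 11 rose, 4 fell and 1 was not called (median 1.81). Tbx3, a T-box factor of naive cells, was at 0 and 0.522 TPM in EpiLC and 106 and 86 TPM in PGCLC (log2 fold change 6.29, SE 0.16), against 117 and 117 TPM in ESC. Klf2 and Klf4 are Krüppel-like factors that maintain the naive state. Klf2 rose from 5.46 and 3.31 TPM to 98.4 and 119.5 TPM, against 348 and 347 TPM in ESC. Klf4 rose from 1.92 and 1.42 TPM to 31.7 and 43.2 TPM, against 329 and 315 TPM in ESC. Both stayed under their ESC levels in both libraries. Tfcp2l1 rose to 23 TPM and Esrrb, a nuclear receptor, to 30.1 TPM. The 4 that fell, Fgf4, Pecam1, Spp1 and Zfp42, include Zfp42 (Rex1), which is used as a reporter of the naive state and stood at 38.5 and 38 TPM in EpiLC and 18.7 and 16.8 TPM in PGCLC. Zfp42 was not called without PGCLC replicate 2, its log2 fold change then being -0.99.

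In the core network, Nanog, the homeobox factor at its centre, was at 29.9 and 23.8 TPM in EpiLC and 172 and 198 TPM in PGCLC (log2 fold change 2.75, SE 0.17). Sall4 rose by 1.09 on the log2 scale. Pou5f1, which encodes OCT4, was at 1838 and 1839 TPM in EpiLC and 1441 and 1638 TPM in PGCLC and was not called. Sox2 was at 67.9 and 67.8 TPM in EpiLC and 84.4 and 89.1 TPM in PGCLC and was not called either. Utf1, a chromatin-bound factor of pluripotent cells, was at 1389 and 1412 TPM in EpiLC and 97.7 and 116 TPM in PGCLC (log2 fold change -3.71, SE 0.19). Foxd3, a forkhead repressor gene, fell from 36.1 and 41.1 TPM to 1.07 and 0.795 TPM, and Dppa5a fell by 1.57. In all, 2 of 12 core genes rose and 4 fell. Of 17 formative pluripotency genes, which mark the epiblast before gastrulation, 11 fell, 1 rose and 5 were not called (median -1.92). Otx2, a homeobox factor of the anterior epiblast, was at 79.7 and 90.9 TPM in EpiLC and 6.29 and 9.87 TPM in PGCLC. The growth factor gene Fgf5 was at 79.9 and 75.2 TPM in EpiLC and 6.73 and 11.7 TPM in PGCLC. Pim2, a serine/threonine kinase gene, fell from 821 and 745 TPM to 139.7 and 207 TPM. The gene that rose was Lef1, which encodes a partner of beta-catenin.

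Of 23 primitive streak and nascent mesoderm genes, 21 rose, none fell and 2 (Nodal and Mesp2) were not called. Their median log2 change was 5.05, or 4.90 with the 7 members listed at 0 in EpiLC set at 3 reads, against 0.15 over all genes. Mixl1, a homeobox factor of the streak, was at 1.53 and 1.31 TPM in EpiLC and 287 and 248 TPM in PGCLC (log2 fold change 6.79, SE 0.27). Eomes, the T-box factor upstream of endoderm and cardiac mesoderm, was at 2.82 and 2.39 TPM in EpiLC and 43.7 and 61.7 TPM in PGCLC. Mesp1 and Msgn1, basic helix-loop-helix factors of early cardiac and presomitic mesoderm, were listed at 0 in EpiLC. In PGCLC Mesp1 reached 87.2 and 51.1 TPM, at least 249-fold higher when EpiLC is set at 3 reads over the group. By the same measure Msgn1 reached 175 and 105 TPM and was at least 266-fold higher. Both were lower in the second PGCLC library than in the first. Snai1, the zinc finger repressor of E-cadherin, rose from 3.31 and 3.56 TPM to 62.9 and 46.8 TPM. Gsc and Lhx1, genes of the anterior streak, reached smaller levels, 6.46 and 9.91 TPM for Gsc and 11.6 and 11.8 TPM for Lhx1.

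Lateral and extraembryonic mesoderm genes rose in 9 of 17 cases, with none lower. With a pseudocount of 0.1 or limma-voom on the recovered reads, 1 was lower. Hand1, a basic helix-loop-helix factor of extraembryonic and lateral mesoderm, was at 0 and 0.19 TPM in EpiLC and 141 and 80.9 TPM in PGCLC (log2 fold change 6.63, SE 0.37). Gata6, Gata4 and Foxf1 reached 10.7, 10.1 and 7.65 TPM. Hand2 and Nkx2-5, later genes of the heart field, were not called, Hand2 being at 0 and 0.281 TPM and Nkx2-5 at 1.93 and 0.206 TPM in PGCLC. Of 18 somite and Notch segmentation genes, 4 rose and 1 fell, beside 13.5% higher and 7.62% lower over all genes tested. The number lower was not the same without EpiLC replicate 2 or PGCLC replicate 2. The Notch effector Hes1 was at 15.3 and 19.8 TPM in EpiLC and 167 and 212 TPM in PGCLC, whereas the somite factor gene Tcf15 fell from 50.7 and 41.4 TPM to 3.17 and 6.08 TPM. The segmentation genes Hes7 and Ripply2 stayed under 1 TPM in all 4 libraries.

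Hox genes are laid out along each cluster in the order in which they are switched on in the embryo. Of 36 tested, 11 rose and none fell, beside 13.5% higher and 7.62% lower over all genes tested. Among the 11, 8 had paralogue numbers of 5 or less. The share of such numbers among all 36 was not compared, so no order is read from this count. In the Hoxa cluster on chromosome 6, Hoxa2, Hoxa3 and Hoxa5, listed at 0 in EpiLC, were at 5.51, 3.94 and 1.82 TPM. In the Hoxb cluster on chromosome 11, Hoxb1 stood at 71.4 and 64.8 TPM, Hoxb2 at 40.6 and 37.1 TPM and Hoxb3 at 9.85 and 6.76 TPM in PGCLC. In EpiLC these 3 were at or near 0. Hoxb8, further along, was called at 3.03 and 1.19 TPM. None of the 9 Hoxc genes was called, though 1 was lower with a pseudocount of 0.1 and 1 higher with limma-voom on the recovered reads. The Hoxd calls (Hoxd1, Hoxd8 and Hoxd9) had means of 1.64 to 3.53 TPM. Hoxd1 lost its call without PGCLC replicate 1 (log2 fold change 0.92).

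**Figure D3:**
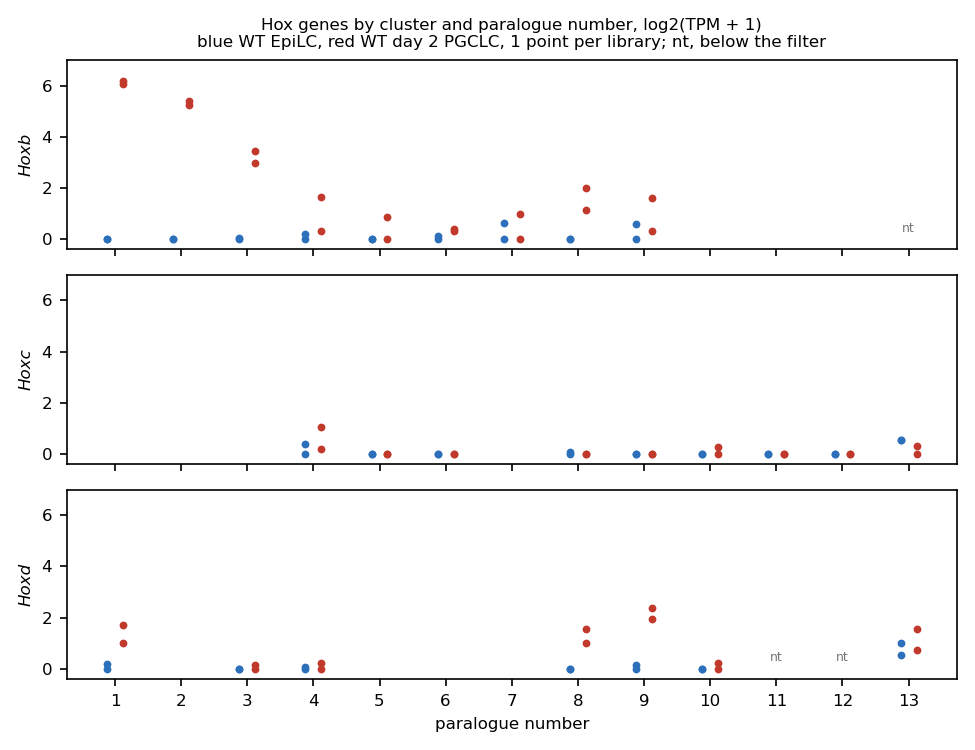
Level of the Hoxb, Hoxc and Hoxd genes as log2(TPM + 1), 1 panel per cluster, against paralogue number on the x axis, with 1 point for each WT EpiLC (blue) and PGCLC (red) library; nt marks genes below the filter on low values. The PGCLC points step down from paralogue 1 to 4 in Hoxb, from 68.1 TPM at Hoxb1 to 1.19 TPM at Hoxb4.

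BMP signalling was read from its targets, inhibitors, ligands and receptors. Of 19 BMP targets and inhibitors, 15 rose, none fell and 4 were not called (median 3.23). With a pseudocount of 0.1, quantile scaling or limma-voom on the recovered reads, 1 of them fell. Id2 was at 9.17 and 8.79 TPM in EpiLC and 212 and 222 TPM in PGCLC. Id3 was at 67.9 and 68.6 TPM in EpiLC and 599.8 and 698 TPM in PGCLC. Like Id1, they encode inhibitors of basic helix-loop-helix factors, and Id1, Id2 and Id3 were each above 200 TPM in both PGCLC libraries. Gata3 and Gata2, zinc finger factors induced by BMP, reached 38.1 and 17 TPM. Among the feedback inhibitors, Smad6 rose from 5.1 and 5.82 TPM to 36.4 and 32.5 TPM, Nog to 3.99 TPM and Bambi to 13.8 TPM, while Smad7 was not called at 30.1 and 40.3 TPM in EpiLC and 63 and 61.4 TPM in PGCLC. The activin antagonist Fst was at 5.71 and 4.49 TPM in EpiLC and 147 and 158 TPM in PGCLC. Of 16 BMP ligands and receptors, 6 rose and 2 fell. With quantile scaling 3 rose. The ligand gene Bmp4 rose, being at 1.17 and 1.08 TPM in EpiLC and 34 and 22.6 TPM in PGCLC. Bmp7 rose as well, at 1.11 and 1.18 TPM in EpiLC and 12.9 and 14.6 TPM in PGCLC. Bmp8b, a ligand of the extraembryonic ectoderm, and Bmp6 fell to 0.661 and 0.327 TPM. The signal transducer gene Smad1 rose from 12.8 and 17.5 TPM to 54.8 and 48.4 TPM.

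WNT genes rose at both the ligand and the target level. Of 14 WNT ligand genes, 10 rose and none fell (median 2.87). With a pseudocount of 0.1 or limma-voom on the recovered reads, 1 ligand gene fell. Wnt3, which starts the streak in the embryo, was at 0.936 and 0.733 TPM in EpiLC and 83.2 and 91.4 TPM in PGCLC. Wnt3a, listed at 0 in EpiLC, was at 33.4 and 30.8 TPM. Wnt8a, Wnt5b and Wnt5a reached 59.8, 98.4 and 24.9 TPM. Of 19 WNT targets, 16 rose, 1 (Nkd2) fell and 2 were not called (median 2.31). Axin2, a feedback inhibitor and a common readout of beta-catenin, was at 2.33 and 1.98 TPM in EpiLC and 96.2 and 89.6 TPM in PGCLC (log2 fold change 4.90, SE 0.17). Among the other inhibitors made by WNT-responding cells, Notum was at 0.289 and 0.655 TPM in EpiLC and 27.7 and 24 TPM in PGCLC. Dkk1 went from a listed 0 to 26.9 and 14.2 TPM. The receptors and secreted inhibitors split, with 5 of 20 higher and 4 lower: the receptor gene Fzd10 rose from 2.93 and 3.14 TPM to 188 and 192 TPM, while Fzd7 and Fzd2 fell from 102 and 38.2 TPM to 36.1 and 10.7 TPM.

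The promoters of 2 of these genes are printed because they hold the letters of the TCF/LEF motif through which beta-catenin acts. RefSeq promoter windows (250 bases before to 50 after the start, build GRCm38.p6) were searched on both strands for CTTTGAT, and the 250 bases before the start are the part printed. Its last letters, AT, can be shared with the CCAAT search (ATTGG), and the sterol and T-box searches used below share the letters TCAC. The motif was present in 2 of the 11 called WNT targets with a window (Sp5 and Tnfrsf19) and in 3 of 18 called streak genes (Mesp1, Msgn1 and Sp5), against 3.04% of 10928 tested genes with a window. Sp5, a zinc finger factor gene, is shown at chr2:70474673-70474922 (plus strand), with the motif in capitals 104 bases before the start, and Msgn1 at chr12:11208949-11209198 (minus strand), with the motif in capitals as its reverse complement 203 bases before the start.
Sp5: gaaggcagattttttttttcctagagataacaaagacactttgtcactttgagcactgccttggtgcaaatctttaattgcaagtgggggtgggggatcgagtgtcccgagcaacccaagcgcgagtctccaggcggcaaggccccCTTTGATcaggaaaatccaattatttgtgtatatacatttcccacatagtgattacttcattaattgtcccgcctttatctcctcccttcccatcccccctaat
Msgn1: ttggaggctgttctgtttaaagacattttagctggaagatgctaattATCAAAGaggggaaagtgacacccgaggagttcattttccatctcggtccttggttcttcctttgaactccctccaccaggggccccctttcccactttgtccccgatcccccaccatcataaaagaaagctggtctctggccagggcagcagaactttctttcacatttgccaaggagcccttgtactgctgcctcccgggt
Sp5 itself was at 0 and 0.0573 TPM in EpiLC and 84.4 and 96.9 TPM in PGCLC (log2 fold change 6.47, SE 0.20). The SMAD motif GGCGCC was in 6 of 11 called BMP targets with a window, against 24.1% of all tested genes with a window. The T-box motif TCACACCT was in 1 of 18 called streak genes against 1.13%. These matches describe letters in a window and show no binding.

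Genes of the FGF family changed in both directions, 7 of 13 higher and 3 lower. Fgf8, the streak ligand needed for cells to leave it, was at 0.442 and 1 TPM in EpiLC and 185 and 253 TPM in PGCLC (log2 fold change 7.0, SE 0.39). Fgf17 and Fgf18 rose to 34.6 and 8.47 TPM. The epiblast ligand genes Fgf5, Fgf4 and Fgf15 fell, Fgf4 being at 144 and 148 TPM in EpiLC and 14 and 13.4 TPM in PGCLC. The receptor gene Fgfr1 was at 51.6 and 49.98 TPM in EpiLC and 128 and 136 TPM in PGCLC. Of 16 genes read as ERK output, 5 rose, 1 (Spry1) fell and 10 were not called, and 2 fell without PGCLC replicate 2. Dusp6, which encodes the phosphatase that switches ERK off, was at 128 and 151 TPM in EpiLC and 379 and 329.8 TPM in PGCLC, whereas Etv4 and Etv5 were at 43.6 and 145 TPM in PGCLC against 70.1 and 281 TPM in EpiLC and were not called.

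In the Nodal pathway 2 of 14 genes rose and 3 fell, beside 13.5% higher and 7.62% lower over all genes tested. Nodal itself was at 45.9 and 48.6 TPM in EpiLC and 77.2 and 112 TPM in PGCLC and its co-receptor gene Tdgf1 at 803 and 869 TPM in PGCLC against 505 and 474 TPM in EpiLC. The antagonist gene Lefty2 was at 54 and 55 TPM in EpiLC and 81.6 and 105 TPM in PGCLC. None of these 3 was called. Gdf3, a ligand related to Nodal, fell from 103 and 84.8 TPM to 19.97 and 19.8 TPM. Lefty1 fell from 154 and 138 TPM to 48.6 and 86.3 TPM but lost its call without PGCLC replicate 1 (log2 fold change -0.75). Of 14 genes of the LIF and STAT3 response, 10 rose and 1 (Pim1) fell (median 2.40). Stat3 was at 5.85 and 7.31 TPM in EpiLC and 53.7 and 50.3 TPM in PGCLC. Its feedback inhibitor gene Socs3 was at 6.85 and 4.76 TPM in EpiLC and 36.5 and 25.9 TPM in PGCLC. The receptor subunit gene Il6st was at 7.27 and 6.52 TPM in EpiLC and 34.5 and 31.2 TPM in PGCLC. With changes of this size, both PGCLC libraries lying above both EpiLC libraries is no separate evidence. Retinoic acid genes rose in 7 of 16 cases. Cyp26a1, which encodes the enzyme that degrades retinoic acid, went from a listed 0 to 29.3 and 29.5 TPM, the synthetic enzyme gene Aldh1a2 was at 1.12 and 2.36 TPM, and the receptor gene Rarg, at 126 and 124 TPM in EpiLC and 68.7 and 67.7 TPM in PGCLC, was not called.

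Of 17 regulators and mesenchymal genes of the epithelial to mesenchymal transition, 12 rose and none fell (median 1.56). With a pseudocount of 0.1 or limma-voom on the recovered reads, 1 of these genes fell. Cdh2, which encodes N-cadherin, was at 4.14 and 4.63 TPM in EpiLC and 89.3 and 66.7 TPM in PGCLC (log2 fold change 3.86, SE 0.21). The intermediate filament gene Vim was at 44.2 and 36.8 TPM in EpiLC and 570.1 and 452 TPM in PGCLC (log2 fold change 3.62, SE 0.09). Fn1 rose to 432 and 366 TPM and Zeb2 to 3.6 and 3.7 TPM, while Zeb1 was at 1.02 and 0.379 TPM and was not called. Of 32 epithelial genes, 6 rose, 5 fell and 21 were not called, beside 13.5% higher and 7.62% lower over all genes tested. With quantile scaling 8 epithelial genes fell. Cdh1, which encodes E-cadherin, was at 461 and 451 TPM in EpiLC and 312 and 319.7 TPM in PGCLC and was not called. Epcam was at 354 and 343 TPM in EpiLC and 195 and 224 TPM in PGCLC and was not called either. E-cadherin mRNA was the more abundant of the 2 cadherins in all 4 libraries. The 6 epithelial genes that rose included the keratin genes Krt8, Krt18 and Krt19 and the desmosome gene Dsp, the last at 0.912 and 1.35 TPM in EpiLC and 119 and 92.6 TPM in PGCLC. Those that fell were Cdh3 (P-cadherin), Rab25, Grhl2, Tjp3 and Prss8.

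The Ovol and Grhl factors, zinc finger and grainyhead-like regulators of epithelial cells, numbered 6. Ovol1 was at 0.804 and 0.58 TPM in EpiLC and 1.02 and 0.325 TPM in PGCLC. Ovol2 was at 9.51 and 12.7 TPM in EpiLC and 11.3 and 6.98 TPM in PGCLC. Ovol3 was at 13 and 10.4 TPM in EpiLC and 9.39 and 9.66 TPM in PGCLC. None of the 3 was called, and EpiLC and PGCLC libraries overlapped for Ovol1 and Ovol2. Grhl2 fell from 32.6 and 29.9 TPM to 11.1 and 12 TPM. Grhl1 fell to 1.43 and 1.87 TPM, whereas Grhl3 rose from 0.839 and 0.951 TPM to 10.3 and 10.2 TPM. Collagen and laminin genes rose in 7 of 22 cases, Col1a1 to 12 and 8.3 TPM, and 1 fell, Col18a1, from 239 and 245 TPM to 56.2 and 71 TPM (2 fell without PGCLC replicate 2). Integrin genes rose in 2 of 14 cases and fell in 2, beside 13.5% higher and 7.62% lower over all genes tested. Those that fell were the laminin receptor subunits Itga3, going to 44.3 and 36.7 TPM, and Itga6, to 32.5 and 30.7 TPM.

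The 3 genes that set new DNA methylation fell. Dnmt3b was at 1149 and 1198 TPM in EpiLC and 130.4 and 148 TPM in PGCLC (log2 fold change -3.07, SE 0.11, limma adjusted p = 2.04e-22). Dnmt3a was at 289.6 and 299 TPM in EpiLC and 29.6 and 31.1 TPM in PGCLC (log2 fold change -3.24, SE 0.10). Their cofactor gene Dnmt3l was at 92.1 and 75.8 TPM in EpiLC and 5.05 and 4.48 TPM in PGCLC (log2 fold change -3.88, SE 0.19). The maintenance genes were not called. Dnmt1 was at 117 and 122 TPM in EpiLC and 136 and 126 TPM in PGCLC, and Uhrf1 was at 268 and 289 TPM in EpiLC and 209 and 207 TPM in PGCLC. Tet1, which encodes the main methylcytosine oxidase of these cells, fell from 45.3 and 54.1 TPM to 22.1 and 19.7 TPM, and Tet2 was at 3.72 and 3.53 TPM and not called. In all, 7 of 14 genes of the methylation machinery fell and 1, Gadd45b, rose. Of 20 histone modifiers, only Kdm3a was called, at 16.1 and 17.7 TPM in EpiLC and 38.7 and 35.2 TPM in PGCLC, and not with quantile scaling. The Polycomb methyltransferase gene Ezh2 was at 156 and 146 TPM in EpiLC and 158 and 154 TPM in PGCLC and was not called.

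Of 24 genes of cholesterol synthesis and uptake, 19 fell, 1 rose and 4 were not called, with a median of -1.47 against 0.15 over all genes. Fdps, which encodes farnesyl diphosphate synthase, was at 809 and 848 TPM in EpiLC and 156 and 166 TPM in PGCLC (log2 fold change -2.35, SE 0.08, limma adjusted p = 7.69e-24). Hmgcs1, which encodes a synthase near the top of the pathway, was at 585 and 583 TPM in EpiLC and 194 and 207 TPM in PGCLC. The later enzymes Mvd, Lss and Sqle fell by 2.33, 2.16 and 1.65. Srebf2, the factor that drives the pathway, was at 192 and 199 TPM in EpiLC and 118 and 128 TPM in PGCLC and was not called. The gene that rose was Ebp, the sterol isomerase, at 17.4 and 14.3 TPM in EpiLC and 69.8 and 83.2 TPM in PGCLC (log2 fold change 2.20, SE 0.15).

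Cholesterol synthesis promoters commonly pair a sterol response element with a CCAAT box bound by NF-Y. Of the 12 genes of this group that fell and have a RefSeq window, all 12 held the CCAAT box (searched as ATTGG on both strands). The share was 43.0% of the 10928 tested genes with a window. The sterol response element, searched as TCACNCCAC, was in 1 of the 12, Hmgcs1, against 1.49% of all tested genes with a window. The promoters of Hmgcs1, which holds both, at chr13:119690101-119690350 (plus strand), and of Mvd, with 2 CCAAT boxes, at chr8:122443423-122443672 (minus strand), are shown with these motifs in capitals.
Hmgcs1: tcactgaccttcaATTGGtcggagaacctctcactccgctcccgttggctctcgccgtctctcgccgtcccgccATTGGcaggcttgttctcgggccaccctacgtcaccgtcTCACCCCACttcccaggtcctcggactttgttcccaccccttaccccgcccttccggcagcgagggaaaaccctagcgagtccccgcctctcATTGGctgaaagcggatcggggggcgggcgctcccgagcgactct
Mvd: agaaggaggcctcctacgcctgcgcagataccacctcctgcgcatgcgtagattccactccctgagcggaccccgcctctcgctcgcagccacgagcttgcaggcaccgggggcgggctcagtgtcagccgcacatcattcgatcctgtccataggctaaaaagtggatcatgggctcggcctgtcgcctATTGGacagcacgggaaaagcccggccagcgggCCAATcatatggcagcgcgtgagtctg
In the Hmgcs1 window the 3 runs ATTGG are CCAAT boxes and the longer run is the sterol element. No match in the other 11 says only that those letters are not in the window.

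Fatty acid synthesis genes fell in 7 of 14 cases and rose in none (median -0.83). Fasn, the fatty acid synthase gene, was at 344 and 364 TPM in EpiLC and 158 and 175 TPM in PGCLC, and the desaturase gene Fads2 went from 256 and 271 TPM to 56.4 and 66.3 TPM. Scd1, another desaturase gene, went from 168 and 184 TPM to 48.2 and 52.4 TPM. Srebf1, at 45.6 and 52.1 TPM in EpiLC and 47.1 and 48.1 TPM in PGCLC, was not called. Of 20 genes of serine and one-carbon metabolism and of the ATF4 response, 8 fell and none rose. Chac1, an ATF4 target, was at 96.9 and 107 TPM in EpiLC and 4.29 and 6.21 TPM in PGCLC. Trib3, another ATF4 target, was at 116 and 129 TPM in EpiLC and 10.7 and 10.7 TPM in PGCLC. Mthfd2, a mitochondrial folate enzyme gene, was at 449.7 and 429 TPM in EpiLC and 78.3 and 70.2 TPM in PGCLC, and Psat1, Psph and Phgdh, the 3 enzymes of serine synthesis, fell by 1.66, 2.02 and 1.13. Atf4 was at 841 and 799 TPM in EpiLC and 304 and 359 TPM in PGCLC.

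In central energy metabolism, none of 22 oxidative phosphorylation genes was called at the log2 fold threshold, their changes lying between -0.80 (Uqcrq) and 0.42 (Atp5j). Of 24 glycolysis and hypoxia genes, 2 rose and 3 fell, or 5 fell with quantile scaling. Over all genes tested 13.5% were higher and 7.62% lower. Both glycolysis genes that rose encode glucose transporters. Slc2a3 was at 68.5 and 70.1 TPM in EpiLC and 513 and 533 TPM in PGCLC. Slc2a1 was at 199 and 192 TPM in EpiLC and 469.9 and 525 TPM in PGCLC. The clearest fall was that of Vegfa, the vascular growth factor gene, from 30.03 and 35 TPM to 4.34 and 6.03 TPM. Among 20 ribosome biogenesis genes only Myc was called, at 71 and 75.6 TPM in EpiLC and 33.7 and 22.9 TPM in PGCLC.

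Of 22 cell cycle genes, 4 rose and 3 fell, beside 13.5% higher and 7.62% lower over all genes tested. The cell cycle genes that rose were the cyclin gene Ccnd2 and 3 genes of the CIP/KIP inhibitors. Ccnd2 was at 6.87 and 6.66 TPM in EpiLC and 68.3 and 73.7 TPM in PGCLC. Cdkn1a (p21) was at 22.7 and 22.8 TPM in EpiLC and 159 and 188 TPM in PGCLC. Cdkn1c (p57) was at 20.4 and 20.05 TPM in EpiLC and 113 and 102 TPM in PGCLC. The CIP/KIP gene with the smallest rise was Cdkn1b (p27), at 19.4 and 19.7 TPM in EpiLC and 46.6 and 40.5 TPM in PGCLC, which was not called with quantile scaling. Cyclin E1 (Ccne1), Cdk6 and Cdkn2a fell, Ccne1 from 378 and 363 TPM to 147 and 157 TPM. The proliferation genes Mki67 and Pcna were not called, at 77.4 and 61.3 TPM and 747 and 777 TPM in PGCLC. Of 18 p53 targets, 8 rose and 1 (Pmaip1) fell. Perp, a desmosomal protein gene, was at 3.99 and 3.48 TPM in EpiLC and 120.4 and 94.4 TPM in PGCLC. Btg2, an antiproliferative gene, was at 10.2 and 11.2 TPM in EpiLC and 102 and 159 TPM in PGCLC. Mdm2, the p53 feedback gene, was at 62.1 and 61.3 TPM in EpiLC and 55.6 and 65.1 TPM in PGCLC and was not called.

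Immediate early genes rose in 10 of 21 cases of a list that also held heat shock genes, and none fell. With limma-voom on the recovered reads 1 gene of the list fell. Beside Fos, the AP-1 gene Fosb was at 0.618 and 0.827 TPM in EpiLC and 63 and 119 TPM in PGCLC. Junb was at 14.3 and 12.3 TPM in EpiLC and 174 and 247 TPM in PGCLC, and Jun was at 8.96 and 10.2 TPM in EpiLC and 89.6 and 127 TPM in PGCLC. Egr1, a zinc finger factor gene, was at 99.2 and 63.9 TPM in EpiLC and 236 and 253 TPM in PGCLC. Fosb was the least even of these between the PGCLC libraries. None of the heat shock genes Hspa1a, Hspa1b, Hspb1, Dnajb1 and Hsp90aa1 was called, Hspa1a being at 3.54 and 3.22 TPM in EpiLC and 6.77 and 5.28 TPM in PGCLC. The labels give no handling time before lysis.

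Imprinted genes rose in 14 of 18 cases and fell in 1 (median 1.56). Peg10, a retrotransposon-derived gene needed for the placenta, was at 10.4 and 12.9 TPM in EpiLC and 752 and 601 TPM in PGCLC (log2 fold change 5.74, SE 0.21). Sgce, which adjoins it on chromosome 6, was at 1.87 and 1.86 TPM in EpiLC and 14.2 and 12.7 TPM in PGCLC. Phlda2 rose from 95.7 and 84.3 TPM to 510.4 and 427 TPM, Peg3 from 64.7 and 62.3 TPM to 308 and 259 TPM and Igf2, the growth factor gene, to 17.8 and 12 TPM. The single fall was Mest, from 151 and 161 TPM to 20.8 and 20.6 TPM (log2 fold change -2.85, SE 0.17). Levels summed over both alleles do not show imprinting status. Of 15 clustered histone genes, 3 rose and 2 fell, beside 13.5% higher and 7.62% lower over all genes tested. Hist1h1c rose to 23.2 and 29.1 TPM. Without EpiLC replicate 1 the counts were 1 higher and 1 lower, and without PGCLC replicate 1 or with a pseudocount of 0.1, 1 was higher. Poly(A) selection and near-identical copies make these values uncertain.

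Markers of other cell types were counted for the cells that a PGCLC culture could hold. Of 12 trophoblast genes, 7 rose and 2 fell (1 without PGCLC replicate 2), but 4 of the 7 (Cdx2, Hand1, Eomes and Gata3) are also streak, mesoderm or BMP genes in the lists above. Peg10 is also counted as imprinted. The defining genes Tpbpa and Prl3d1 were at 0 in all 4 libraries. Elf5 was at 0 in PGCLC. Of 11 endoderm and anterior streak genes, 4 rose (Trh, Gata6, Gsc and Gata4), against 8 with a pseudocount of 0.1 and 7 with limma-voom on the recovered reads. Sox17 and Foxa2 were at 0.926 and 1.38 TPM and 0.355 and 1.46 TPM and were not called, and Cer1, Ttr, Afp and Hnf4a were at 0. Endothelial and blood genes rose in 3 of 15 cases (6 with a pseudocount of 0.1 and 5 with limma-voom) and fell in 5 (3 with a filter at a TPM of 5), the angioblast receptor gene Kdr going from a listed 0 to 1.93 and 1.15 TPM. Neural genes rose in 1 of 10 cases and fell in 2, beside 13.5% higher and 7.62% lower over all genes tested. Without EpiLC replicate 2, 2 neural genes rose, and without EpiLC replicate 1 or PGCLC replicate 2, 1 fell, Sox1 losing its call.

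Fibroblast genes rose in 8 of 13 cases and fell in 2. Tagln, an actin-binding protein gene, was at 18 and 17.4 TPM in EpiLC and 384 and 339 TPM in PGCLC. Pdgfrb, a receptor of mesenchymal cells, was at 0.646 and 0.289 TPM in EpiLC and 13.7 and 12.9 TPM in PGCLC, whereas Thy1 and Dcn fell from 25.3 and 10.5 TPM to 2.54 and 0.101 TPM. The summed level of the 7 markers kept for feeder fibroblasts was 35.6 to 39.3 TPM in EpiLC and 16 to 23.4 TPM in PGCLC, with Lum and Postn at 0 in all 4 libraries. The summed level of the 5 trophoblast markers was 1.57 to 2.59 TPM in EpiLC and 5.77 to 7.59 TPM in PGCLC. Their part in the results above was not tested.

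**Figure D4:**
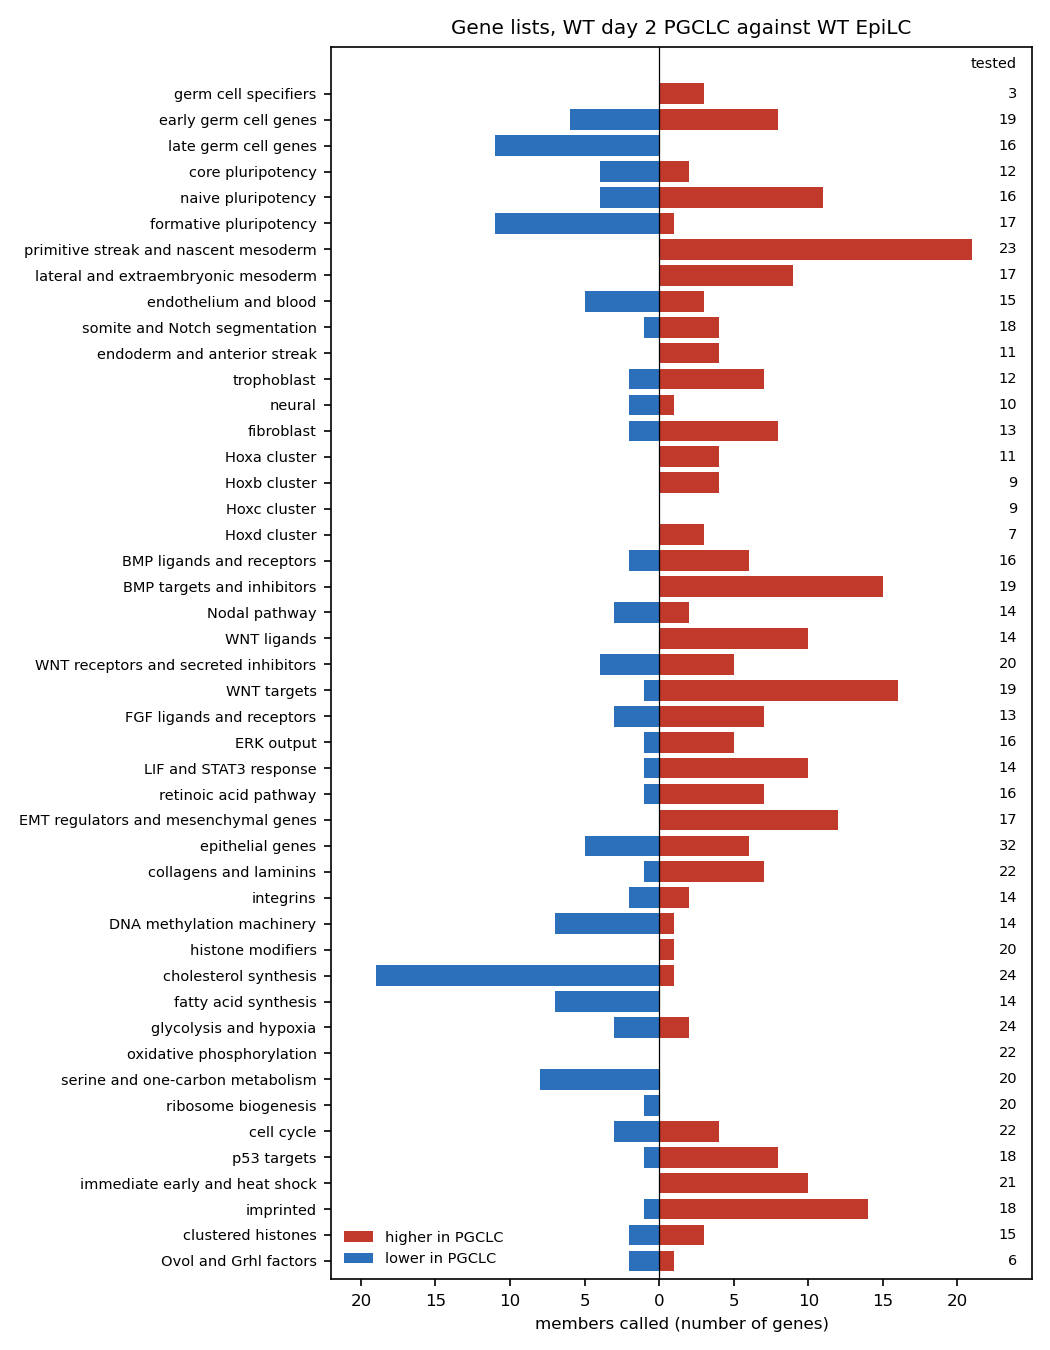
Number of genes called higher (red, to the right) and lower (blue, to the left) in WT day 2 PGCLC against WT EpiLC for each of 46 gene lists, with the number tested at the right edge. Streak genes (21 of 23 higher), WNT targets (16 of 19) and BMP targets (15 of 19) stand at one extreme, cholesterol synthesis (19 of 24 lower) and late germ cell genes (11 of 16 lower) at the other. The lists share genes: 13 of the 21 called streak genes and 8 of the 17 called WNT targets also stand in other lists, so the bars are not separate evidence.

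The same step was then read in the 8 other lines, each compared with its own EpiLC by the same fit. Stages were taken from the titles, with which the source names match. The cell type tag gives another stage in 8 libraries, the 6 of Cdh1-Tg and the 2 PGCLC libraries of Ovol2a-Tg, so the values of these 2 lines rest on the titles. Between 1849 genes (in the line labelled Ovol3KO) and 3538 genes (in the line labelled TKO) were called. As a share of the genes tested, calls made up 17.2% in Ovol1KO (10.6% higher and 6.62% lower), 24.3% in Ovol2KO (14.6% higher and 9.68% lower), 12.8% in Ovol3KO (6.06% higher and 6.76% lower) and 24.5% in TKO (14.5% higher and 10.1% lower). In the transgenic lines they made up 19.8% in Ovol2a-Tg (11.7% higher and 8.13% lower), 23.8% in Ovol2b-Tg (14.1% higher and 9.7% lower), 24.2% in Ovol2a/2b-Tg (16.2% higher and 8% lower) and 22.9% in Cdh1-Tg (14.2% higher and 8.72% lower). Of the genes called in WT, 67.6% were called in the same direction in Ovol1KO, 72% in Ovol2KO, 69% in TKO, 69.2% in Ovol2a-Tg, 70.5% in Ovol2b-Tg, 69.9% in Ovol2a/2b-Tg and 65.3% in Cdh1-Tg. These shared genes were 82.9% of the Ovol1KO calls and 59.3% to 73.8% of the calls of the other 6. In Ovol3KO 32.5% of the WT calls were shared, making up 53.4% of its own. In WT and all 8 others together, 292 genes were higher and 242 lower, among them T, Id1, Tfap2c, Prdm1, Prdm14 and Klf4 on the higher side and Mael, Hormad1, Pou3f1, Dnmt3a, Fdps and Nqo1 on the lower. A further 109 genes higher and 54 lower in WT were called in none of the 8. The lines differ in labelling style, so line and batch cannot be told apart.

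**Figure D5:**
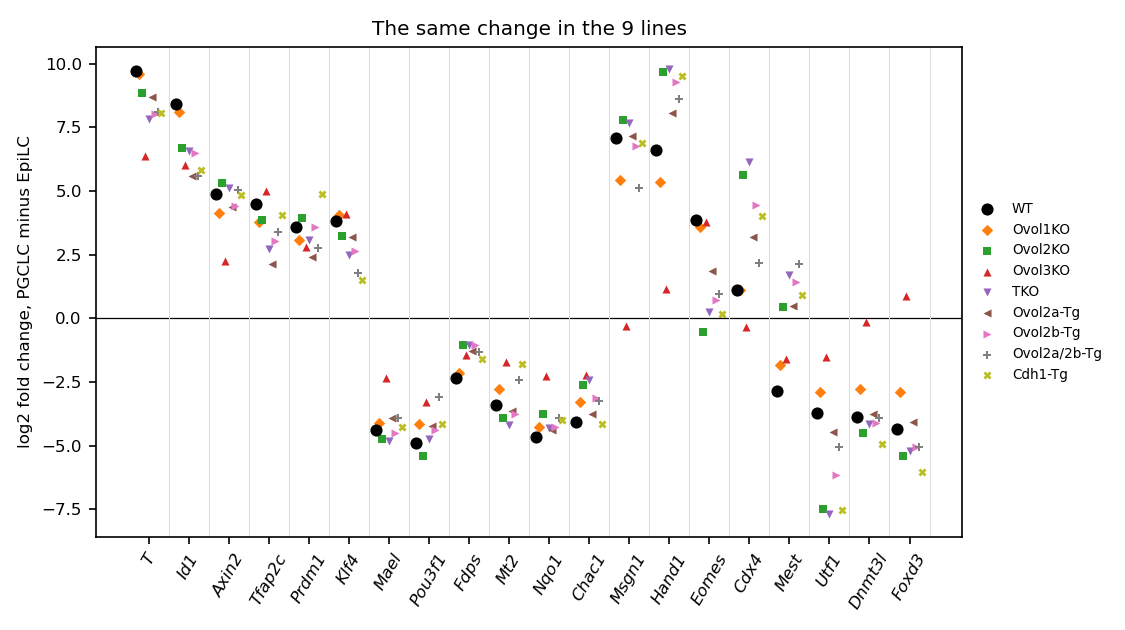
Log2 fold change from EpiLC to PGCLC on the log2(TPM + 1) scale for 20 genes, 1 point per line (key at the right), WT as large black circles. T, Id1, Tfap2c and Prdm1 are positive and Mael, Pou3f1, Fdps and Mt2 negative in all 9 lines, while Msgn1, Cdx4, Mest and Foxd3 differ in sign between lines.

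The difference in the change was tested against WT for 2 lines. In the line labelled TKO, which the labels do not spell out, mean Ovol2 was at 10.2 to 1.18 TPM from EpiLC to PGCLC against 11.1 to 9.12 TPM in WT, and Ovol3 at 12.6 to 5.64 TPM against 11.7 to 9.53 TPM. Its step differed from that of WT for 1357 genes (9.41%), 611 higher (4.24%) and 746 lower (5.17%). Cdx4, a caudal gene, went from 0.798 to 125 TPM against 0.522 to 2.37 TPM in WT, a difference in log2 change of 5.02, SE 0.39. Mest, which fell in WT from 156 to 20.7 TPM, went from 176 to 581 TPM in TKO (difference 4.57, SE 0.24). Hoxd9 and Crabp1, a posterior Hox gene and a retinoic acid binding protein gene, were likewise higher, with differences of 4.14, SE 0.43 and of 3.98, SE 0.52. On the lower side, Eomes rose in WT from 2.61 to 52.7 TPM and stood at 3.43 to 4.21 TPM in TKO (difference -3.65, SE 0.35). Utf1 fell further, from 1322 to 5.37 TPM against 1400.3 to 107 TPM (difference -4.0, SE 0.27). The EpiLC means of Mest, Utf1 and Eomes were close between the 2 lines, and the PGCLC means were not. All had limma adjusted p between 1.06e-15 and 6.42e-07.

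In the line labelled Ovol3KO the step differed from WT for 2319 genes (16.1%), 707 higher (4.9%) and 1612 lower (11.2%). Its mean Ovol3 level was at 5.73 to 8.55 TPM from EpiLC to PGCLC against 11.7 to 9.53 TPM in WT, so the transcript was still counted, and the labels do not say which part of the gene was changed. Msgn1 rose in WT from 0 to 140.0 TPM and was at 0.255 to 0 TPM in Ovol3KO (difference -7.39, SE 0.56, limma adjusted p = 1.51e-12). Hand1 was at 0.24 to 1.85 TPM against 0.095 to 111 TPM (difference -5.46, SE 0.52), and Sprr2a3 at 0 to 1.52 TPM against 0.342 to 208 TPM. With limma-voom on the recovered reads these last 2 differences had adjusted p = 0.181 and 0.176. The 6 genes with the largest positive differences among those called in WT all fell in WT. Foxd3 was at 8.62 to 17 TPM against 38.6 to 0.93 TPM (difference 5.25, SE 0.33), and Dnmt3l at 119 to 108 TPM against 84 to 4.76 TPM (difference 3.73, SE 0.27). For Dnmt3l the EpiLC levels of the lines were within 1.5-fold of each other, while Foxd3 already differed as EpiLC. The germ cell specifiers rose in Ovol3KO too, with a median log2 change of 4.14 against 3.74 in WT, while the streak list had a median of 1.60 against 5.05, a description with no test of the lists.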

How the data were processed

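Poly(A) mRNA was sequenced from 54 libraries (27 groups of 2, 9 lines at 3 stages), with 12 PCR cycles per the labels' protocols. The authors deposited TPM values. The submitters' processing notes name HISAT2, featureCounts, edgeR and mm10; they give no versions, annotation or strand setting. TPM are shares of the mRNA of a library, so they show no amount per cell, and unstranded counting would mix overlapping genes.

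Groups were taken from the sample titles, which differ from the cell type tag in 8 libraries of 2 other lines (Cdh1-Tg and Ovol2a-Tg). For 2 columns (Ovol2b-Tg EpiLC) the names give the group but not the library. Whole reads were recovered from the TPM for 17956 of 17973 genes above 0 (99.91%, each within 0.05 of a whole number) and gave the depths; they cover counted reads only, and floors of 3 reads cover counting error only. PCR copies are not independent molecules.

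The 54 libraries were fitted together with limma 3.58.1 (R version 4.3.3), trend and robust options on, using log2 of TPM plus 1. That left 27 residual degrees of freedom. Genes entered if 2 or more libraries reached 1 TPM, which kept 14416. A call required a BH adjusted p below 0.05 and a log2 change of 1 or more in size. Exact permutation was not used, since 2 against 2 libraries allow no two-sided p below 0.33. Differences between lines were contrasts in the same fit.

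The genes named were the 12 largest rises and falls with no overlap between groups and a mean TPM of at least 5 in a group, the 10 largest gains and losses of TPM, up to 6 called members of each of 46 lists with any member whose role is described, and, for each line difference, the 6 largest in each direction among genes also called in WT. The members and lists were chosen with earlier results of these data known. Of 717 genes in the lists, those below the filter are not counted, and some list members are not reported here by name. Promoters come from RefSeq tables (GRCm38.p6), positions from GENCODE M21 (GRCm38). Alternatives were another pseudocount, other filters, quantile scaling, limma-voom on the recovered reads, smaller fits, a replicate block, no fold threshold and leaving out each library.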

Additional observations from a re-analysis of the deposited data

Results flagged for a closer look

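These are the results where the EpiLC to PGCLC change of another line differed from that of WT by a test of the difference in limma. The 2 counts were 1357 genes for the line labelled TKO and 2319 for the line labelled Ovol3KO.

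For TKO, the 6 largest of the higher changes among genes also called in WT, as differences in log2 change, were those of Cdx4 (5.02), Mest (4.57), Unc5c (4.31), Hoxd9 (4.14), Crabp1 (3.98) and Capn6 (3.92). Genes not called in WT, which this choice leaves out, had differences as large. With limma-voom on the recovered reads Unc5c (4.86, adjusted p = 0.0642) and Capn6 (2.74, adjusted p = 0.397) were not called. The 6 largest of the lower changes, chosen in the same way, were those of Nt5e (-4.72), Apln (-4.51), Utf1 (-4.0), Pim2 (-3.78), Fgf5 (-3.77) and Eomes (-3.65). Nt5e, which encodes the ecto-nucleotidase CD73, rose in WT from 2.12 to 69.5 TPM and was at 2.22 to 1.77 TPM in TKO. Apln, the apelin gene, rose in WT from 0.264 to 31.1 TPM and was at 0.664 to 0.827 TPM in TKO. Fgf5 and Pim2 fell in both lines, and further in TKO, from 107 to 0 TPM and 1002 to 14.9 TPM.

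For Ovol3KO, the 6 largest of the higher changes among genes also called in WT were those of Foxd3 (5.25), Lefty1 (4.60), Rpl10l (4.28), Eras (3.97), Zfp534 (3.75) and Dnmt3l (3.73). The 6 largest of the lower changes were those of Msgn1 (-7.39), Sprr2a3 (-6.00), Sprr2a2 (-5.94), Sprr2a1 (-5.94), Sprr2b (-5.78) and Hand1 (-5.46). Eras, an ESC-expressed Ras gene, was at 18 to 42.3 TPM in Ovol3KO against 35.5 to 4.05 TPM in WT, and Lefty1 at 21.4 to 220.2 TPM against 146 to 67.4 TPM. The Sprr2 genes lie together on chromosome 3 and are close copies, so they are not separate evidence. With limma-voom Sprr2a1, Sprr2a2, Sprr2a3 and Hand1 were not called (adjusted p = 0.176 to 0.428). The 2 libraries per group were too few for a check of single outlying samples.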

How the results depend on the processing

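The count of changed genes in WT was 3923 with a pseudocount of 0.1, 3037 without a filter, 2666 with a filter at a TPM of 5, 2901 with quantile scaling, 3952 with limma-voom on recovered reads, and 3030 and 3040 in fits of the 4 and 6 WT libraries. Leaving out each WT library gave 2992 to 3201 changed genes, 1882 to 2072 higher and 1110 to 1129 lower. For the differences from WT, leaving out each library of WT or of the other line gave 1241 to 1395 genes for TKO and 2061 to 2535 for Ovol3KO. Without the fold threshold the counts were 8648 changed (5415 higher, 3233 lower), 3054 for TKO and 5624 for Ovol3KO. With the replicate number as a block the counts were 3044, 1364 and 2328. The labels do not say whether same-numbered libraries belong together, so this pairing was not used. The deviations of same-numbered WT EpiLC and PGCLC libraries from their group means had a correlation of 0.00555 over 14416 genes. That value cannot show how the libraries were made. None of the 222 genes taken by the naming rule for WT changed direction, nor did those taken for the line differences. Among the 222, calls lost in at least 1 setting were those of Hist1h1d, Hist1h1e, Hist1h1b, Jag1, Smad5, Kdm3a, Cdkn1b, Dhrs3, Sox1, Hoxd1, Lefty1, Pdk1 and Zfp42 in WT. List members named only for their role, such as Dppa3 and Tet1, were not followed through the settings. With limma-voom the TKO difference lost Unc5c and Capn6, and the Ovol3KO difference lost Sprr2a1, Sprr2a2, Sprr2a3 and Hand1; the cause was not tested. Depth limits the scarce genes, as the shallower EpiLC library held 3.5 M recovered reads.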
